A study of Mus musculus with 64 samples.

Results

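The transforming growth factor beta (TGF-β) pathway was followed through 9 genes in retinal microglia sorted from naive mice and from mice injected intravitreally (IVT) with AAV2. The genes are the ligand *Tgfb1*, the anchoring protein *Nrros*, the receptors *Tgfbr1* and *Tgfbr2*, the signal transducers *Smad2*, *Smad3* and *Smad4*, and the inhibitors *Smad7* and *Skil*. They were taken by symbol from the table of batch-corrected counts and make up 9 of its 25239 genes. Earlier results of these data were known when they were chosen. All 9 passed the filter on low counts that left 13584 genes for testing. Every group carried the genotype Cx3cr1CreER:R26-tdTomato +/- on a C57BL/6J background and, per the study's methods, had received tamoxifen eye drops followed by a washout, naive mice included. Per the study's methods the vector was AAV2 without a transgene that carries an inhibitory sequence against toll-like receptor 9 (io2). The naive groups were not injected. The other groups received 1e10 genome copies per eye of this vector and were collected at day 12 or day 28. Each of these 3 states was sampled at 3, 9 and 18 months of age in females and males, which gave 18 groups and 62 libraries (32 from females and 30 from males), each from a fixed number of tdTomato-high cells sorted out of the retina of 1 eye. The Cre is driven from *Cx3cr1*, so that the sort can hold any cell in which that gene was active when tamoxifen was given. Naive eyes were the comparator throughout, and the vector and the injection itself cannot be told apart.

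TGF-β1 is made as a latent precursor that stays bound to its propeptide until it is released next to a responding cell. On microglia NRROS (also called LRRC33) tethers this latent form to the cell surface. Released ligand joins a type II receptor (TGFBR2), which phosphorylates the type I receptor (TGFBR1), which in turn phosphorylates SMAD2 and SMAD3. These enter the nucleus with SMAD4, while SMAD7 blocks the type I receptor and SKIL (SnoN) holds SMAD complexes at DNA in a repressed state. The pathway is known for keeping microglia in their resting state, and loss of the ligand, of NRROS or of a receptor is known to strip these cells of homeostatic genes.

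*Tgfb1* spans chr7:25687002-25705077, *Nrros* chr16:32142785-32165594 and *Tgfbr1* chr4:47353222-47414926 (mm10). The promoters of these 3 members, which fell in 3-month-old mice at day 12, are shown so that their sequences can be set beside their levels. They run from 250 bases before to 50 bases after the RefSeq start site, on the strand of the gene (GRCm38.p6), and such a window was matched for 5 of the 9 members. Capitals mark the 5-base SMAD core CAGAC and the 6-base GC box GGGCGG on either strand.
Tgfb1 (chr7:25686752-25687051, plus strand): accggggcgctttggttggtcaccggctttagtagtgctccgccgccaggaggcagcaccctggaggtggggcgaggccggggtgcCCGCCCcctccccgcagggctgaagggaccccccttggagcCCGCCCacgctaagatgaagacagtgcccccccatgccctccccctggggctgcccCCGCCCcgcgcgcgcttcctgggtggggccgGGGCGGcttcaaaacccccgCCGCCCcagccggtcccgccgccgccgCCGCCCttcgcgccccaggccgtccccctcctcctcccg
Nrros (chr16:32165545-32165844, minus strand): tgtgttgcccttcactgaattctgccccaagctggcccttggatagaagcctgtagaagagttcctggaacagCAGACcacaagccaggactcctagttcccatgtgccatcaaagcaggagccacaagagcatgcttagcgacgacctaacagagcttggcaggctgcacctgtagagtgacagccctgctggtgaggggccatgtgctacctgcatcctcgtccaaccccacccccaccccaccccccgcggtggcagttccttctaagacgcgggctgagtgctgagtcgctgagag
Tgfbr1 (chr4:47352972-47353271, plus strand): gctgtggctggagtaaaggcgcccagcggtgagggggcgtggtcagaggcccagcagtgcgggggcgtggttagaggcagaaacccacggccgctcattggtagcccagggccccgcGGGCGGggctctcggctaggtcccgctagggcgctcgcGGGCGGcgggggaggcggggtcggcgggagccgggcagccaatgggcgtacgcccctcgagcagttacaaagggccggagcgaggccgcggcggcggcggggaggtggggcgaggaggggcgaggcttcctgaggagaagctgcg
The *Tgfb1* window was 77% G and C with 6 GC boxes and no SMAD core. The *Tgfbr1* window was 74.7% G and C with 2 GC boxes and no SMAD core, and the *Nrros* window was 59% G and C with 1 SMAD core and no GC box. A second annotated start of *Tgfbr1* (chr4:47385966-47386265, plus strand) held 1 SMAD core. These letters are common, since 49.6% of all 32851 promoter windows hold the SMAD core and 35.7% the GC box. Among the 13763 windows of tested genes, to which the members belong, the shares are 47.5% and 59.6%. The SMAD palindrome GTCTAGAC (0.213% of windows), the PU.1 motif GAGGAAGT (3.2%), the interferon-stimulated response element (3.44%) and the AP-1 motif TGANTCA (7.81%) had no match on either strand in the windows of *Tgfb1*, *Nrros*, *Tgfbr1*, *Tgfbr2* and *Smad3*. A match describes the letters of the window and not a bound site.

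Library totals lay between 1468478 and 9836173 counts (median 4188992). Levels are given as CPM, counts scaled to the TMM-adjusted library total, and a floor of 3 counts stood for 0.305 to 2.04 CPM depending on the library, which covers counting error only. All 10 microglial markers had counts in every library, and their summed level was 13437 to 51983 CPM. Among the 62 libraries, 10 stood apart on a within-group principal component, which carried 23.0% of the within-group variance. It was computed without the 9 members, from deviations from each group's median. The 10 were 4 naive, 5 day 12 and 1 day 28 libraries, 9 on the high side of the component and 1 on the low side. Results are given with and without them. Naive 9-month-old males were 2 libraries, each measured from their midpoint. Replicate 2 passed the cut of 3 scaled median absolute deviations at 3.01, and replicate 1 lay inside it at -2.77. Without the 10 libraries, 9-month-old naive mice were 3 libraries, with male replicate 1 the only male. The library of 18-month-old males at day 28, replicate 4, has a title that says day 28 while its time point says day 12. It was placed by its title and is among the 10. The sex-linked genes went against the label in 2 deposited libraries, neither of which is among the 62. In 9-month-old males at day 12, replicate 2 had a summed mitosis level of 6.27 CPM against 334 to 708 CPM in the other 3 replicates, and a *Tgfbr1* level of 920 CPM, within the range of naive mice, so that the 9-month calls at day 12 are also given without it. In 18-month-old females at day 12, summed mitosis levels were 10.5 and 68.7 CPM in replicates 1 and 2. Replicates 3 and 4 held 439 and 999 CPM. The 7 T cell markers summed to 1.57, 13.2, 383 and 220 CPM in replicates 1 to 4 of these females. Replicate 1 of them stands apart, and replicate 2 does not.

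*Tgfbr1* was by far the most abundant member per length. Its median over the 62 libraries was 147 CPM per kb of exon (interquartile range 102 to 181), against 30.3 for *Skil*, 30.0 for *Tgfbr2* and 29.0 for *Nrros*, whose interquartile ranges overlapped. *Smad4* followed at 11.3 CPM per kb (10.3 to 12.7), then *Tgfb1* at 6.84 (5.90 to 8.97). The lowest 3 were *Smad7* at 5.57, *Smad2* at 5.15 and *Smad3* at 4.90 CPM per kb, again with overlapping ranges. Without length scaling, the level of *Tgfbr1* ran from 250 CPM in a 9-month-old male at day 12 to 1885 CPM in a 9-month-old male at day 28 (median 942 CPM), a 7.53-fold range. *Tgfb1* varied most between libraries, from 5.73 to 67.6 CPM (median 14.9 CPM), with a coefficient of variation of 54.5% over all libraries against 24.3% for *Skil* and 24.4% for *Tgfbr2*.

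**Figure D1:**
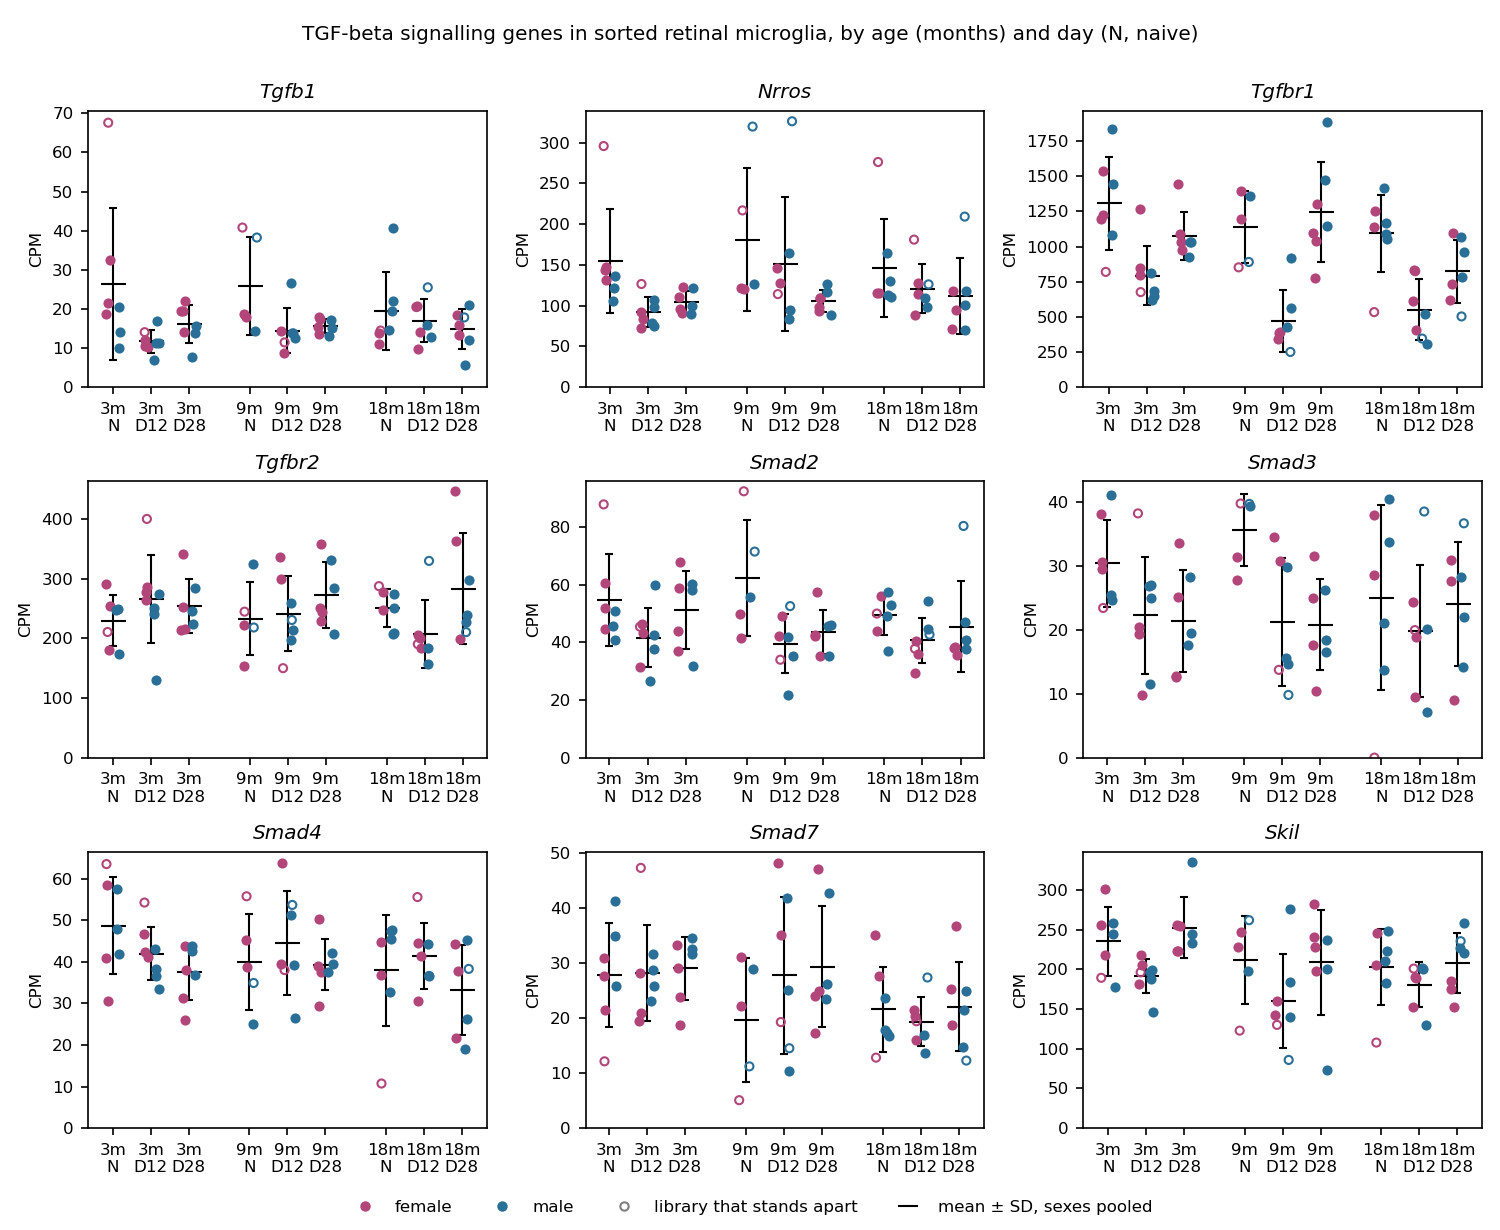
Level of each of the 9 genes in every library (CPM, linear axes from 0) by age in months and by day, with N for naive mice; points are libraries, open points are the 10 libraries that stand apart, and black bars give the mean ± SD with the sexes pooled. *Tgfbr1* sits lower at day 12 than in naive mice at each age, with group medians of 741, 391 and 522 CPM at 3, 9 and 18 months, while single open points carry the highest *Tgfb1* and *Nrros* values.

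At day 12 the members that passed the test were lower than in naive mice. *Tgfbr1* fell at all 3 ages, *Tgfb1* at 3 and 9 months, *Nrros* at 3 months and *Smad2* at 9 months, while *Tgfbr2*, *Smad3*, *Smad4*, *Smad7* and *Skil* passed at no age. By edgeR's quasi-likelihood test at a Benjamini-Hochberg adjusted p under 0.05, 3 of the 9 members were called at 3 months, where 16.6% of all tested genes were called, 7.23% lower and 9.42% higher. At 9 months 3 of 9 were called beside 18.4% of all genes (7.91% lower and 10.5% higher), and at 18 months 1 of 9 beside 15.6% (6.02% lower and 9.53% higher). The median log2 fold change of the 9 members was -0.34, -0.45 and -0.27 at 3, 9 and 18 months, and that of all tested genes was -0.00052, 0.061 and 0.026. In these bulk libraries fewer cells of a type and less RNA per cell cannot be told apart.

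*Tgfb1*, which encodes the ligand, ranged from 10.1 to 67.6 CPM in naive 3-month-old mice (median 20.4 CPM, n = 7) and from 7.0 to 16.9 CPM at day 12 (median 11.3 CPM, n = 8). Of the naive libraries, 5 of 7 lay above the highest day 12 library, and the 2 below it were both male. On the log2 scale *Tgfb1* fell by 0.96 (SE 0.28, adjusted p = 0.0125). The call was lost without naive female replicate 4 (-0.67, adjusted p = 0.0954) or naive male replicate 3 (-0.81, adjusted p = 0.0574), and was kept without all libraries that stand apart (-0.73, adjusted p = 0.0473). At 9 months the naive libraries held 40.8, 18.0 and 18.6 CPM in females and 14.2 and 38.2 CPM in males, against 8.62 to 26.6 CPM at day 12 (median 13.7 CPM, n = 7). The 2 highest of these naive libraries, female replicate 1 and male replicate 2, stand apart, and 6 of 7 day 12 libraries lay below the lowest naive library. With the libraries that stand apart left out, naive males here were replicate 1 alone. The log2 fold change of -0.92 (SE 0.31, adjusted p = 0.0327) became -0.18 without those libraries. Without male replicate 2 at day 12, the highest of that group, it was -1.07 (adjusted p = 0.0124). The call was lost without any 1 of naive female replicate 1, naive male replicate 2, day 12 female replicate 3 or day 12 male replicates 1, 3 and 4, with adjusted p-values from 0.0563 to 0.454. At 18 months the naive range of 11.1 to 40.6 CPM (median 14.7, n = 7) enclosed all day 12 libraries but 1 (9.78 to 25.5 CPM, median 15.9, n = 7), and *Tgfb1* changed by -0.07 on the log2 scale (SE 0.29, adjusted p = 0.926). The change to day 12 at 18 months differed from that at 3 months by 0.89 on the log2 scale, with an adjusted p of 0.398 in the edgeR fit.

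*Nrros* ranged from 106 to 296 CPM in naive 3-month-old mice (median 137 CPM) and from 71.9 to 127 CPM at day 12 (median 87.9 CPM). The day 12 libraries were mostly the lower ones, with 6 of 8 below the lowest naive library. *Nrros* fell by 0.68 on the log2 scale (SE 0.23, adjusted p = 0.0331), and its change was -0.60 (SE 0.15, adjusted p = 0.00234) without the libraries that stand apart. The call was lost without naive female replicate 4 (-0.49, adjusted p = 0.158), and also without any 1 of naive male replicates 1 and 2, day 12 female replicates 1 and 4 or day 12 male replicates 1 and 2 (adjusted p = 0.0556 to 0.0801). At 9 months the naive libraries held 217, 120.4 and 122 CPM in females and 126 and 320 CPM in males, and day 12 spanned 83.8 to 326 CPM (median 128 CPM). The groups overlapped, with 3 of 7 day 12 libraries below the lowest naive library, and the log2 fold change of -0.33 (SE 0.26) did not pass the test (adjusted p = 0.421), nor did it without male replicate 2 at day 12 (-0.33, adjusted p = 0.439). At 18 months it was -0.31 (SE 0.24, adjusted p = 0.439), from 110 to 276 CPM in naive mice (median 116 CPM) and 87.9 to 181 CPM at day 12 (median 115 CPM).

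*Tgfbr1*, the type I receptor kinase, had the smallest adjusted p of the 9 members at each age. In 3-month-old mice it ranged from 820 to 1837 CPM in naive libraries (median 1227 CPM) and from 620 to 1268 CPM at day 12 (median 741 CPM). The lowest naive library is one that stands apart, and 6 of 8 day 12 libraries lay below it. *Tgfbr1* fell by 0.75 on the log2 scale (SE 0.21, adjusted p = 0.00737). At 9 months the naive libraries held 852, 1392 and 1194 CPM in females and 1358 and 890 CPM in males, and day 12 libraries 250 to 920 CPM (median 391 CPM). Only male replicate 2 at day 12, the library with few mitosis counts, reached the naive range. The log2 fold change of -1.34 (SE 0.23, adjusted p = 2.12e-05) became -1.53 (adjusted p = 8.62e-07) without that library. At 18 months naive libraries held 534 to 1416 CPM (median 1140 CPM) and day 12 libraries 305 to 836 CPM (median 522 CPM). Of the 7 naive libraries 6 lay above every day 12 library, and the log2 fold change was -1.07 (SE 0.22, adjusted p = 0.000265). Without the 10 libraries that stand apart, *Tgfbr1* had log2 fold changes of -0.76, -1.45 and -1.25. It was called at 3 and 18 months (adjusted p = 0.00113 and 7.19e-06 in edgeR). At 9 months that fit held 1 naive male.

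*Tgfbr2*, the type II receptor that binds the ligand first, passed at no age. Its log2 fold changes at day 12 were 0.20 (SE 0.18), 0.03 (SE 0.20) and -0.28 (SE 0.19) at 3, 9 and 18 months, with adjusted p-values of 0.526, 0.959 and 0.355. Levels in naive mice were 174 to 292 CPM at 3 months, 154 to 325 CPM at 9 months and 208 to 288 CPM at 18 months. At day 12 they were 131 to 401, 150 to 336 and 157 to 330 CPM, so that the groups overlapped at each age. At 18 months 6 of 7 day 12 libraries lay below the lowest naive library. Without the libraries that stand apart the levels there were 208 to 278 CPM in naive mice and 157 to 205 CPM at day 12. *Tgfbr2* was not called in that fit either, and how many of all genes part in this way was not counted. The difference between the responses of the 2 receptors was not tested.

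Among the transducers, *Smad2* passed at 9 months only. Naive libraries there held 92.4, 49.8 and 41.5 CPM in females and 55.8 and 71.5 CPM in males, and day 12 libraries 21.8 to 52.6 CPM (median 41.8 CPM). The 2 highest naive libraries are again female replicate 1 and male replicate 2, and 3 of 7 day 12 libraries lay below the lowest naive library. The log2 fold change of -0.66 (SE 0.22, adjusted p = 0.0302) became -0.38 without the libraries that stand apart, with 1 naive male left. It was -0.68 (adjusted p = 0.0276) without male replicate 2 at day 12. The call was lost too without any 1 of naive female replicate 1, naive male replicate 2, day 12 female replicates 1 and 2 or day 12 male replicate 3, with adjusted p-values from 0.0581 to 0.205. At 3 and 18 months it was -0.34 and -0.27 (adjusted p = 0.254 and 0.426). *Smad3* had log2 fold changes of -0.45, -0.76 and -0.32 (SE 0.38, 0.43 and 0.40) and passed at no age. In 18-month-old naive mice *Smad3* ran from 0 counts in female replicate 1, which stands apart, to 40.4 CPM, and day 12 from 7.18 to 38.5 CPM. Without the libraries that stand apart *Smad3* fell by 0.95 at 18 months on the log2 scale (SE 0.34, adjusted p = 0.043). *Smad4*, the shared partner, changed by -0.22, 0.26 and 0.16 on the log2 scale (adjusted p = 0.546, 0.516 and 0.697).

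The inhibitors did not pass at day 12. *Smad7*, which TGF-β itself induces in many cells, had log2 fold changes of 0.01, 0.50 and -0.19 (SE 0.29, 0.34 and 0.31) at 3, 9 and 18 months, with adjusted p-values of 1, 0.334 and 0.757. Its levels were 12.1 to 41.3 CPM in naive 3-month-old mice and 19.5 to 47.3 CPM at day 12. *Skil* had log2 fold changes of -0.29, -0.45 and -0.16 (SE 0.19, 0.21 and 0.20), with adjusted p-values of 0.328, 0.14 and 0.664. In 3-month-old mice 5 of 7 naive libraries held more *Skil* than any day 12 library, at 178 to 302 CPM against 146 to 218 CPM. At 9 months *Skil* passed when male replicate 2 at day 12 was left out (log2 fold change -0.61, SE 0.21, adjusted p = 0.0291).

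**Figure D2:**
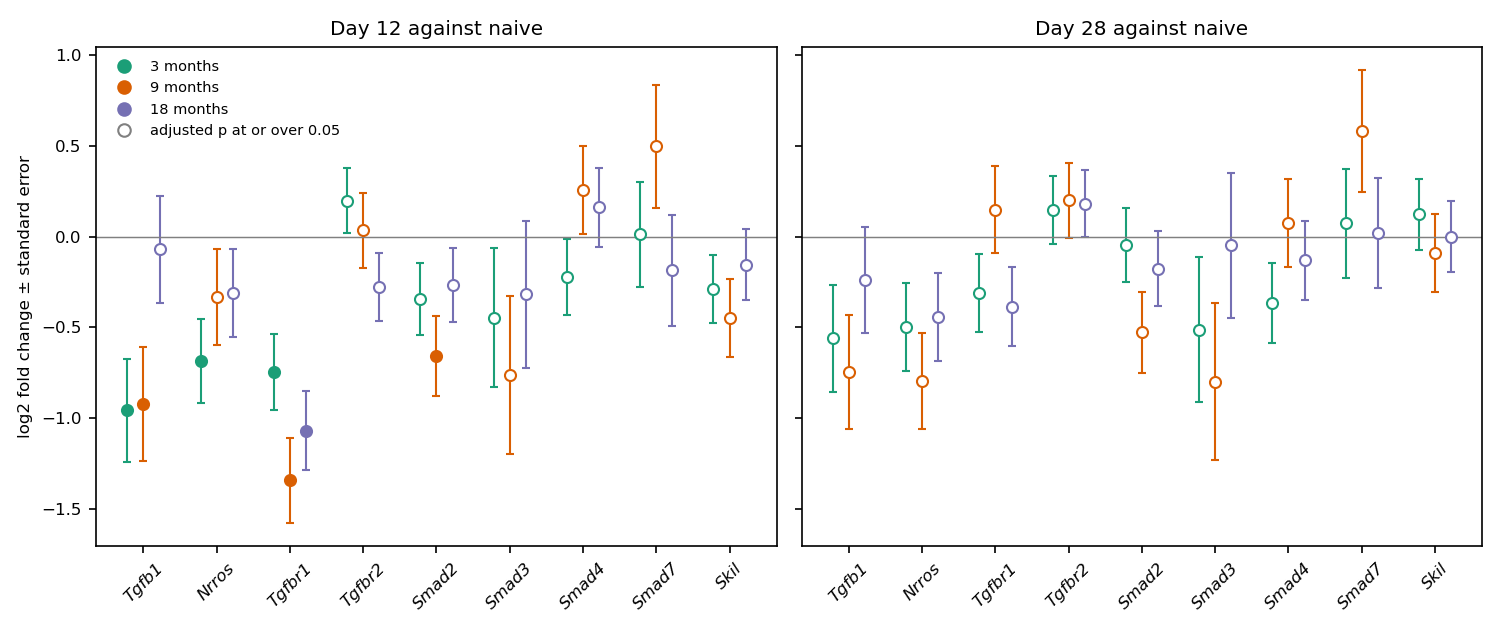
Log2 fold change of each gene at day 12 (left) and day 28 (right) against naive mice at 3, 9 and 18 months, with bars of 1 standard error from the edgeR quasi-likelihood fit; filled points have an adjusted p under 0.05. At day 12 the filled points are *Tgfbr1* at all 3 ages (-0.75, -1.34 and -1.07), *Tgfb1* at 3 and 9 months, *Nrros* at 3 months and *Smad2* at 9 months, and no point is filled at day 28; both panels share the naive libraries.

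The libraries were collected on 2 days, and the comparison was repeated within each. For *Tgfbr1* at 3 months the log2 fold change was -0.70 on collection day 1 (adjusted p = 0.353) and -0.76 on day 2 (adjusted p = 0.0437). At 9 months it was -1.22 (adjusted p = 0.0319) and -1.24 (adjusted p = 0.002), so that it passed within each. At 18 months it was -0.21 on collection day 1 and -1.58 on day 2 (adjusted p = 3.64e-06), and the difference between collection days was not tested. On collection day 1 the 18-month-old naive females were 1 library, replicate 1. It stands apart and held 534 CPM, the lowest naive level at that age. The 18-month-old males at day 12 were also 1 library there. Within a collection day some groups of the other ages held a single library too. *Tgfb1* at 3 months gave -0.59 and -1.22 and *Nrros* -0.78 and -0.63 on collection days 1 and 2, with no adjusted p under 0.05. *Tgfb1* at 9 months gave -0.74 and -1.07 (adjusted p = 0.393 and 0.107), while *Nrros* at 9 months gave -0.12 on day 1 and passed on day 2 (-0.88, adjusted p = 0.0406). With uncorrected counts and no term for collection day, 0 members passed at 3 months, where the *Tgfbr1* log2 fold change was -0.78 (adjusted p = 0.0514).

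Summed levels of marker lists for other cells and for cell division also differed between naive and day 12 libraries, and are given as medians with no test. The summed level of 7 T cell markers went from a median of 1.28 to 101 CPM at 3 months, from 0 to 102 CPM at 9 months and from 2.48 to 220 CPM at 18 months, with *Cd3d* at 0 in 16 of 62 libraries. The 6 border macrophage markers, which include *Mrc1* and *Pf4*, went from 265, 284 and 149 CPM in naive mice to 5.89, 4.91 and 7.35 CPM at day 12. The 7 mitosis genes went from 52.6, 50.4 and 17.6 CPM to 80.4, 499 and 439 CPM, and the 8 monocyte and neutrophil markers from 11.1, 17.7 and 29.6 to 28.7, 60.4 and 183 CPM. The 10 microglial markers, several of which are homeostatic genes, went from 40979 to 28308 CPM at 3 months in median sum. The highest B cell sum was 117 CPM, where *Cd79b* alone reached up to 116 CPM, with *Ms4a1* at 0 in 52 of 62 libraries. The 7 photoreceptor markers had medians of 2146, 2969 and 2241 CPM in naive mice and 1032, 829.8 and 1365 CPM at day 12. The part of these cells in the changes of the 9 members was not tested.

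At day 28 no member passed against naive mice. The same naive libraries serve the day 12 and the day 28 comparisons, so that the values stand side by side and their agreement is no separate result. By edgeR's quasi-likelihood test 0 of 9 members were called at each age, beside 2.78%, 4% and 4.82% of all tested genes at 3, 9 and 18 months, with 1, 3 and 0 members at an unadjusted p under 0.05 and 0 called by DESeq2 at each age. The median log2 fold change of the members was -0.31, -0.09 and -0.13, and that of all tested genes -0.01, 0.04 and 0.02. *Tgfbr1* held 923 to 1445 CPM at 3 months (median 1030), 776 to 1885 CPM at 9 months (median 1143) and 503 to 1097 CPM at 18 months (median 783), each range overlapping that of naive mice. Its log2 fold changes against naive were -0.31 (SE 0.21), 0.15 (SE 0.24) and -0.39 (SE 0.22), against -0.75, -1.34 and -1.07 at day 12. On collection day 2 alone *Tgfbr1* passed at 18 months (-0.88, adjusted p = 0.0152), where collection day 1 gave 0.47. The naive females of collection day 1 were again replicate 1 alone, which stands apart. *Nrros* had the smallest adjusted p at each age (0.358, 0.071 and 0.354), with log2 fold changes of -0.50, -0.80 and -0.44. At 9 months *Nrros* held 88.8 to 127 CPM at day 28, and 6 of 7 libraries lay below the lowest naive library. Without the libraries that stand apart, with 1 naive male left, its change was -0.19.

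Between day 12 and day 28 *Tgfbr1* rose at 9 months. All 7 day 28 libraries (776 to 1885 CPM) lay above all day 12 libraries other than male replicate 2 at day 12, and the log2 fold change was 1.49 (SE 0.22, adjusted p = 6.18e-06), the 1 call of 9 members beside 9.32% of all genes. It was 1.39 (adjusted p = 2.54e-06) without the libraries that stand apart, 1.68 (adjusted p = 1.44e-07) without male replicate 2 at day 12, and 1.43 (adjusted p = 0.106) and 1.49 (adjusted p = 0.000293) on collection days 1 and 2. At 3 months 0 members were called in edgeR beside 2.79% of genes (2 at an unadjusted p under 0.05, 0 in DESeq2), with *Tgfbr1* at 0.43 (SE 0.21, adjusted p = 0.286) and *Skil* at 0.41 (SE 0.19, adjusted p = 0.258). At 18 months 0 members were called in edgeR beside 2.8% of genes (2 at an unadjusted p under 0.05, 1 in DESeq2), with *Tgfbr1* at 0.68 (SE 0.22, adjusted p = 0.0723). *Tgfbr1* passed there without the libraries that stand apart (0.81, adjusted p = 0.00392), and also with the library of 2 day labels placed at day 12 (0.72, adjusted p = 0.0477).

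Age was compared within each state. In naive mice 0 members were called in edgeR at 9 against 3 months (0% of all genes) or at 18 against 3 months (0.0515%), with 0 at an unadjusted p under 0.05 and 0 in DESeq2. At day 12 *Tgfbr1* was lower at 9 than at 3 months, 250 to 920 CPM against 620 to 1268 CPM, by a log2 fold change of -0.81 (SE 0.21, adjusted p = 0.0493), beside 0.611% of all genes called. This call was lost in 12 of 15 fits that left out 1 library, with adjusted p-values up to 0.174 without 9-month-old male replicate 1, and stood at an adjusted p of 0.0141 without the libraries that stand apart and 0.00411 without 9-month-old male replicate 2. Those 12 libraries were replicates 1, 2 and 4 of the 3-month-old females, all 4 replicates of the 3-month-old males, replicates 2 and 3 of the 9-month-old females and replicates 1, 3 and 4 of the 9-month-old males. At 18 against 3 months *Tgfbr1* was at -0.62 (SE 0.21, adjusted p = 0.141), and 0 members were called in edgeR beside 0.64% of genes (1 at an unadjusted p under 0.05, 0 in DESeq2). Without the libraries that stand apart it passed (-0.70, adjusted p = 0.0215). At day 28 0 members were called in edgeR at 9 months (0% of genes) or 18 months (0.00736%) against 3 months, with 0 at an unadjusted p under 0.05 and 0 in DESeq2.

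The change of *Tgfbr1* from naive to day 12 was not shown to depend on age. It differed by -0.60 (SE 0.31, adjusted p = 0.845 in edgeR) between 9 and 3 months and by -0.32 (SE 0.30, adjusted p = 0.757) between 18 and 3 months. In the 4 tests of age against state, 0 members were called in edgeR (0.0294%, 0.00736%, 0% and 0% of genes), with 1 member, *Tgfb1*, at an unadjusted p under 0.05 and 0 in DESeq2.

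Sexes were compared within each age. *Tgfbr1* went from 1194 ± 294 CPM (SD, n = 4) in naive females to 897 ± 258 CPM (n = 4) at day 12 at 3 months, and from 1455 ± 377 CPM (n = 3) to 690 ± 83.3 CPM (n = 4) in males. At 9 months it went from 1146 ± 273 CPM (n = 3) to 372 ± 25.2 CPM (n = 3) in females and from 1124 ± 331 CPM (n = 2) to 539.5 ± 284 CPM (n = 4) in males. At 18 months the means were 975 ± 386 (n = 3) and 669 ± 205 CPM (n = 4) in females and 1181 ± 164 (n = 4) and 391 ± 115 CPM (n = 3) in males. Within a sex, *Tgfbr1* passed in 3-month-old males (-1.08, adjusted p = 0.0172 in edgeR, 7.21% of genes called), 9-month-old females (-1.62, adjusted p = 0.00056, 11.2%) and 18-month-old males (-1.59, adjusted p = 0.00032, 8.91%). It did not in 3-month-old females (-0.41, adjusted p = 0.436, 7.36%), 9-month-old males (-1.06, adjusted p = 0.053, 4.6%) or 18-month-old females (-0.54, adjusted p = 0.328, 3.49%). Of these 18-month-old females at day 12, replicates 1 and 2 had summed mitosis levels of 10.5 and 68.7 CPM, within the range of naive mice. The part of these libraries in the 18-month values was not tested. *Tgfb1* passed in 3-month-old females (-1.57, adjusted p = 0.00537) and was at -0.34 (adjusted p = 0.719) in males. None of these differences between the sexes passed: the response of *Tgfbr1* in males minus that in females was -0.66, 0.56 and -1.05 at 3, 9 and 18 months (adjusted p = 0.899, 0.854 and 0.511 in edgeR), and that of *Tgfb1* was 1.23 at 3 months (adjusted p = 0.875). In all 6 tests of sex against state 0% of genes and 0 members were called in edgeR, with 1 member at an unadjusted p under 0.05 at day 12 at 3 months and 1 at 18 months, and DESeq2 called 0 members. Males and females themselves differed in 0 members in naive mice, at day 12 and at day 28, beside 0.081%, 0.0589% and 0.0589% of genes in edgeR, with 0 members at an unadjusted p under 0.05 and 0 in DESeq2. Within a sex, 0 members were called at day 28 against naive mice in edgeR, beside 0.788%, 1.52% and 1.4% of genes in females and 0.537%, 0.147% and 1.25% in males at 3, 9 and 18 months, with 2, 0 and 1 members in females and 0, 1 and 0 in males at an unadjusted p under 0.05.

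**Figure D3:**
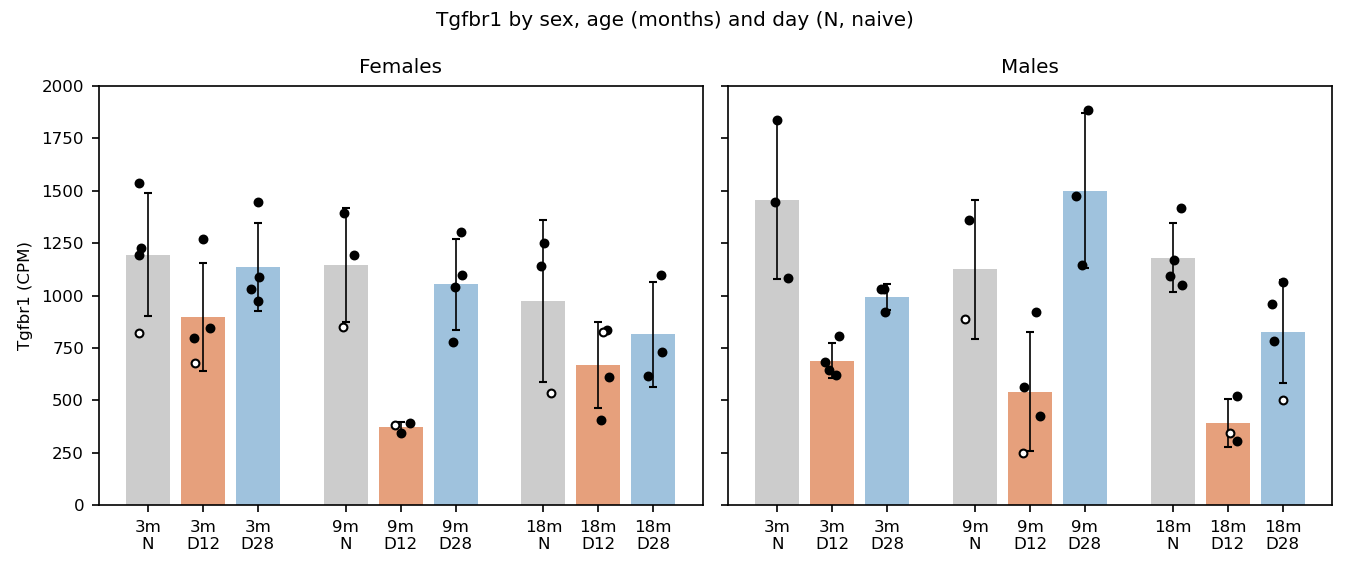
*Tgfbr1* level (CPM, linear axis from 0) in every library of the 18 groups, with bars for the group mean, lines for its SD and open points for the libraries that stand apart. The day 12 mean is below the naive mean in each sex and age, from 1146 to 372 CPM in 9-month-old females and from 1181 to 391 CPM in 18-month-old males.

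The other genes of the pathway were taken as 5 lists, with a list of homeostatic microglial genes beside them. Of ligands and their activators, 10 of 16 were tested, and at each age 1 was higher and 1 lower at day 12. The higher one was *Mmp14*, a membrane protease that can release latent TGF-β, at 17.3 ± 6.41 CPM (SD, n = 7) in naive and 73.3 ± 29.7 CPM (n = 8) in day 12 libraries at 3 months, with log2 fold changes of 2.12, 3.10 and 1.20 at 3, 9 and 18 months. The lower one was *Itgb3*, an integrin subunit, at 46.0 ± 19.8 and 10.1 ± 8.17 CPM at 3 months, with -2.30, -2.59 and -2.17. The list medians were -0.16, -0.04 and -0.07, beside -0.00052, 0.061 and 0.026 over all tested genes. With the libraries that stand apart left out 11 were tested, with 1 higher at each age and 1, 1 and 3 lower.

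Of 9 receptors tested out of 10, the BMP receptor *Bmpr1a* was higher (0.61, adjusted p = 0.0496 in edgeR) and the activin receptors *Acvr2a* (-1.21) and *Acvr1* (-0.88) lower at 3 months. The coreceptor *Eng* (-1.18) and *Acvr2b* (-1.50) were lower at 9 months, and *Acvr2b* (-2.43) at 18 months. In the fit without the libraries that stand apart 0 receptors were higher at any age, so that the call of *Bmpr1a* was lost, and 2, 1 and 1 were lower. Of 15 transducers and cofactors tested out of 17, *Smad1*, which carries BMP signals, was lower at 3 months (-0.54), *Daxx* higher at 9 months (2.05) and *Zfyve9* lower at 18 months (-1.67). Leaving out the libraries that stand apart, 0, 2 and 1 of these 15 were higher and 3, 1 and 2 lower at 3, 9 and 18 months. Genes named here for 9 and 18 months were picked after their values were seen.

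All 18 inhibitors were tested. At 3 months 1 was higher, the corepressor *Tgif1* (0.82), and 3 were lower, among them *Pmepa1*, a TGF-β-induced inhibitor that fell from 280 ± 69.3 to 147 ± 48.1 CPM (-0.98, adjusted p = 0.000516 in edgeR). *Pmepa1* was also lower at 9 months (-0.87) and 18 months (-1.32), where 2 and 4 inhibitors were lower and 0 higher. The ubiquitin ligases *Wwp1* (-0.73) and *Stub1* (-0.67) were the other lower ones at 3 months. Of the 18, 2, 2 and 3 were lower and 1, 0 and 0 higher without the libraries that stand apart. List medians of -0.07, -0.18 and -0.08 lay below those of all genes.

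Among 14 tested targets of 16, those called moved up, 4, 5 and 5 at 3, 9 and 18 months and 0 down, with list medians of 1.16, 1.34 and 1.18. They hold *Id2*, a repressor of helix-loop-helix factors, which went from 52.8 ± 9.59 to 274.8 ± 67.9 CPM at 3 months (2.33, then 2.25 and 1.89), and the cell cycle inhibitor *Cdkn1a* (2.44, 1.57 and 2.51). *Fn1*, which encodes fibronectin, was at or under 3 counts in 6 of 7 naive 3-month libraries (0 to 2.74 CPM) and at 8.68 to 112 CPM at day 12. At 9 months it was at or under 3 counts in all 5 naive libraries and at 1.57 to 495 CPM at day 12. These genes respond to other signals as well as to TGF-β.

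The 17 homeostatic genes, counted without *Tgfbr1*, had 13, 15 and 14 lower members at 3, 9 and 18 months, and 0, 1 and 0 higher, with medians of -1.09, -1.30 and -0.89. *Siglech* went from 2187 ± 202 to 624 ± 154 CPM at 3 months (-1.82), the fructose transporter *Slc2a5* from 338 ± 130 to 39.2 ± 15 CPM (-3.04), and the purinergic receptor *P2ry12* from 7949 ± 1483 to 1486 ± 385 CPM (-2.41). Without the libraries that stand apart 15, 14 and 15 were lower, and 4, 5 and 5 of 15 targets higher. At day 28 against naive, 2, 7 and 6 homeostatic genes were lower and 2, 3 and 2 targets higher. At day 28 without the libraries that stand apart, 8 and 10 homeostatic genes were lower at 3 and 18 months. In the same fit 2 and 3 targets were higher. Over the alternatives, all genes called at day 28 ran from 63 to 776 at 3 months and from 106 to 2026 at 18 months. List counts without the libraries that stand apart, here and above, are therefore not read as results about the lists.

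**Figure D4:**
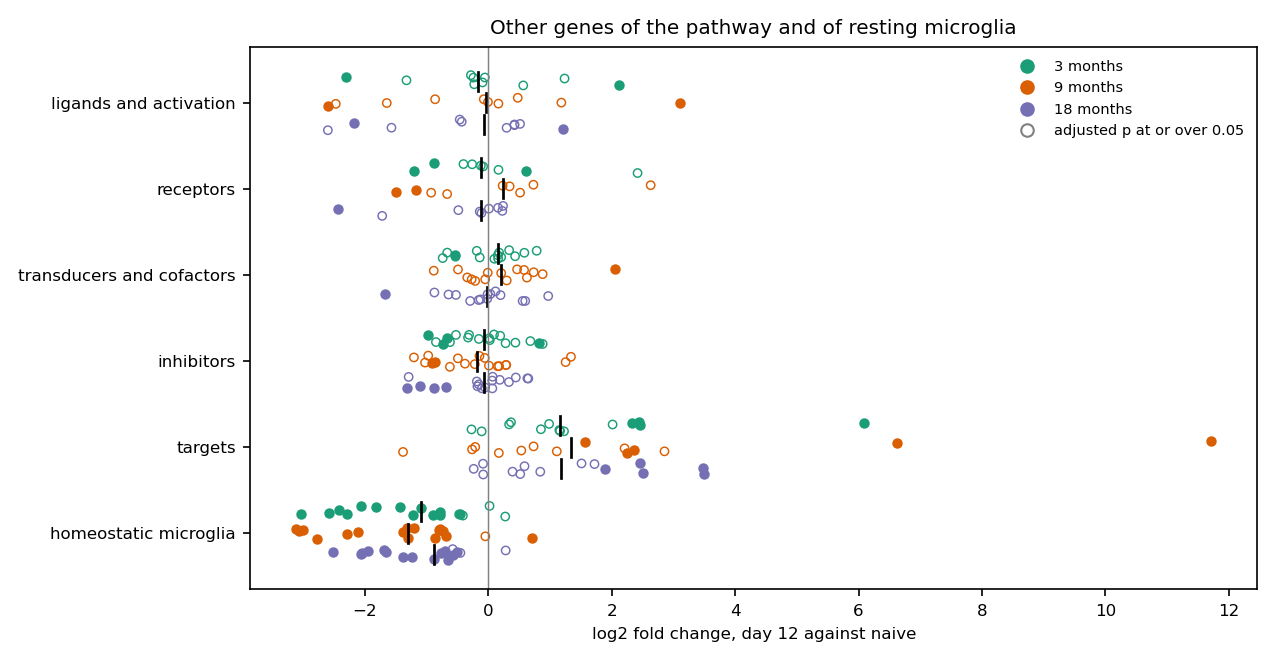
Log2 fold change at day 12 against naive mice for every tested gene of the 5 pathway lists and the homeostatic list, at 3, 9 and 18 months; filled points have an adjusted p under 0.05 and black bars are list medians. The homeostatic genes sit mostly below 0 at day 12 (medians -1.09, -1.30 and -0.89) and the targets mostly above (1.16, 1.34 and 1.18), while the other lists have medians between -0.18 and 0.23. The targets farthest right are *Fn1* and *Id1*, whose fitted fold changes depend on the prior count because many naive libraries hold 3 counts or fewer. For *Id1* these are 3 of 7, 4 of 5 and 4 of 7 naive libraries at 3, 9 and 18 months.

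Within groups, the members varied along the component that sets the 10 libraries apart. Pearson's r between the deviation of a member's log2 CPM from its group median and the component was 0.83 for *Nrros*, 0.54 for *Tgfb1*, 0.51 for *Smad2* and -0.45 for *Tgfbr1*, and lay between -0.26 and 0.29 for the other 5. These are descriptions over 62 libraries, which share their group medians. The highest *Nrros* value, 326 CPM in 9-month-old male replicate 1 at day 12, and the highest *Tgfb1* value, 67.6 CPM in 3-month-old naive female replicate 4, both belong to libraries that stand apart.

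**Figure D5:**
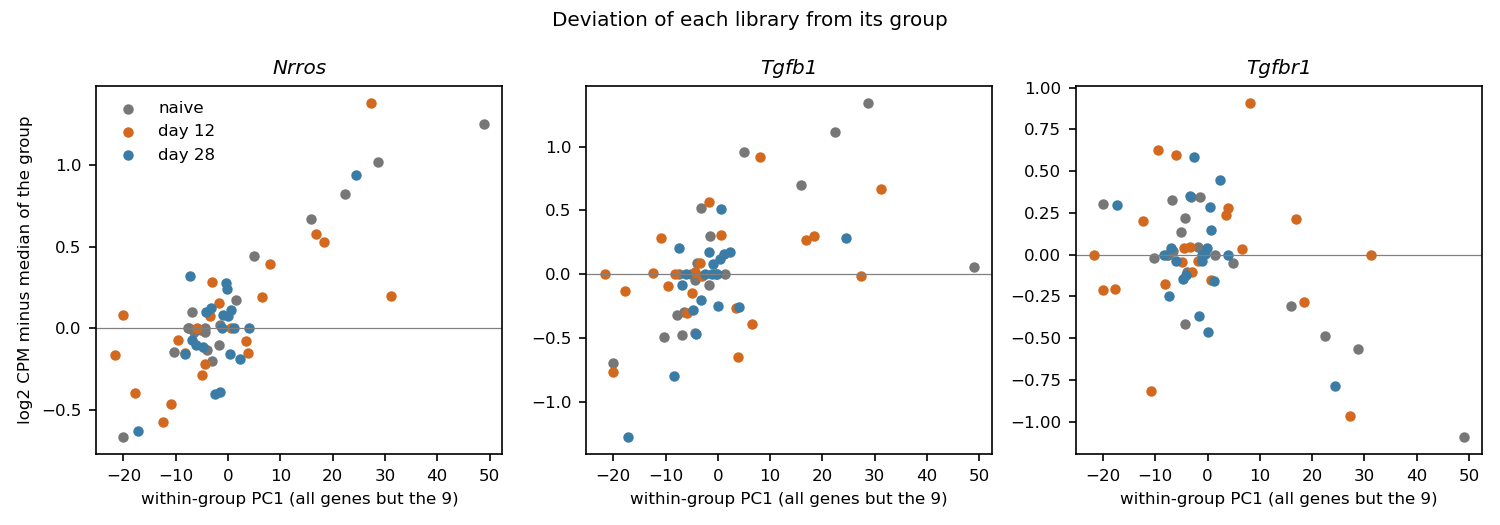
Log2 CPM of *Nrros*, *Tgfb1* and *Tgfbr1* in each library minus the median of its group (vertical axes), against the position of the library on the within-group component computed without the 9 members; colours give the day, and a library on the high side that stands apart lies at 15.9 or beyond. *Nrros* climbs along the component (r = 0.83) and *Tgfbr1* descends (r = -0.45).

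Over the 18 group means, the genes whose log2 levels were most like *Tgfbr1* were *Mtdh* (r = 0.96), *Tmcc3* (0.95) and *Rgs2* (0.94), where the median r over all genes was -0.01. For *Tgfb1* they were *Ubl4a* (0.86), *Asb8* (0.85) and *Mtus1* (0.84), for *Nrros* *Arf1* (0.92) and *Cdc42se2* (0.91), and for *Skil* *Zfp976* (0.87), *Fcho2* (0.86) and *Trmt10c* (0.82). Group means share the libraries and their batch correction, and these values are descriptions.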

How the data were processed

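RNA of sorted retinal microglia was measured by RNA sequencing (SMART-Seq v4 cDNA, Nextera XT libraries, single-end sequencing on a NextSeq instrument). The authors made base calls with bcl2fastq 2.20, aligned reads with STAR 2.7.8a to mm10, counted them per gene with featureCounts and removed the effect of collection day with ComBat_seq, using R 4.2.2. The deposited values used here are whole-number counts per gene of 63 batch-corrected libraries, and uncorrected counts of 64 libraries served as an alternative. Batch-corrected counts are modelled values, and adjusting them beforehand can make p-values too small. Of these corrected libraries, 62 were used, leaving out 1 whose sex-linked genes went against its label. Groups were set by age, sex and day from the labels, and 1 library with 2 day labels went by its title.

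Counts were fitted in R 4.3.3 with edgeR 4.0.16 (TMM, filterByExpr, glmQLFit and glmQLFTest, 1 fit of 18 groups, sexes weighted equally), with Benjamini-Hochberg adjustment over 13584 genes and a threshold of 0.05. DESeq2 1.42.0 served as an alternative, and figures were drawn with matplotlib 3.10.9 in Python 3.11.15. CPM per kb used exon lengths of the mm10 annotation, and promoter windows came from RefSeq. Libraries more than 3 scaled median absolute deviations from the median of the first within-group component (4159 genes with a mean log2 CPM above 5, members left out) were called apart. Fits that left out 1 library kept the gene set and dispersion trend of the full fit. Per the study's methods single eyes were sorted and fellow eyes went to other assays, so that libraries were taken as separate mice. No 2 libraries of a group were identical in 79 pairs. On simulated data for day 12 against naive at 3 months (13197 genes), 100 genes were changed by each size. Of those changed by 0.75 on the log2 scale 26% were recovered, and 82% of those changed by 1.5. The real comparison called 2261 of 13584 genes, a larger share, so that recovery in it can differ. The 9 members and the lists were chosen with earlier results of these data known. Named genes were the 9 members in every comparison and, from each other list, up to 3 higher and 3 lower genes with the smallest p among those called at day 12 at 3 months, with the 3 genes most like *Tgfbr1*, *Tgfb1*, *Nrros* and *Skil*. Some genes that these rules would name are not reported here.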

Additional observations from a re-analysis of the deposited data

Results flagged for a closer look

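In 81 gene and group pairs of at least 4 libraries, 6 held a library whose gap to the nearest other one exceeded Dixon's 95% critical value, where chance gives about 5% of groups. *Tgfb1* was 26.6 CPM in 9-month-old male replicate 2 at day 12, against 12.6 to 14 CPM in the others. *Nrros* was 296 CPM in 3-month-old naive female replicate 4, against 131 to 148 CPM. *Tgfbr2* was 401 CPM in 3-month-old female replicate 3 at day 12, against 265 to 286 CPM. The latter 2 libraries stand apart on the within-group component. *Smad3* was 11.5 CPM in 3-month-old male replicate 2 at day 12, against 25 to 27 CPM. In 18-month-old naive male replicate 4, *Smad4* was 32.7 CPM, against 45.5 to 47.7 CPM, and *Smad7* was 23.7 CPM, against 16.8 to 17.9 CPM.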

How the results depend on the processing

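Counts of called members at day 12 against naive were 3, 3 and 1 at 3, 9 and 18 months. The number of all tested genes called there was 2261, 2495 and 2113. Over the alternatives it ran from 455 to 2857, from 562 to 3132 and from 443 to 2844. A member count under an alternative is therefore not by itself a result about the members. At 3 months the count was 0 with uncorrected counts and no batch term, 0 with glmTreat against a log2 fold change of 1, 0 with collection day 1 only and 1 with day 2 only. At 9 months it was 1 with no filter on low counts, with uncorrected counts, with 1 fit per age, with collection day 1 only and without the libraries that stand apart, and 0 with glmTreat. At 18 months it was 0 with glmTreat and 2 without the libraries that stand apart. At day 28 against naive (0 in the fit reported), 9 months gave 1 with no filter, 1 with collection day 1 only and 1 with the within-group component as a term, and 18 months gave 2 with collection day 1 only and 1 with day 2 only. For day 28 against day 12, 3 months gave 1 with 1 fit per age and 1 with GC and length slopes as terms, 9 months gave 0 with glmTreat and 0 with collection day 1 only, and 18 months gave 1 with DESeq2, 1 with no filter, 1 with the library of 2 labels at day 12 and 2 without the libraries that stand apart. The single call at 9 against 3 months at day 12 became 0 with total counts, with uncorrected counts with or without a day term, with glmTreat, with the left-out library included and within each collection day, and 2 with no filter, without the libraries that stand apart and with the component as a term. At 18 against 3 months at day 12 the count became 1 without the libraries that stand apart. With collection day 1 only, where some groups held 1 library, the count also moved for 18 against 3 months in naive mice and for sex in naive mice. It moved as well for the age tests and the sex tests of the change to day 12 and to day 28 at 18 months. The number of all genes called moved in these comparisons too, and the counts are not read as results about the members. *Smad3* reversed at 18 months with collection day 1 only, to 4.58 at day 12 and 4.89 at day 28, where the 1 naive female library holds 0 counts of it. Other causes were not tested.

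Leaving out 1 library at a time gave 1 to 3, 1 to 4 and 1 to 1 called members at day 12 at 3, 9 and 18 months, 0 to 0, 0 to 1 and 0 to 0 at day 28, 0 to 0, 1 to 1 and 0 to 1 for day 28 against day 12, 0 to 1 for 9 against 3 months at day 12 and 0 to 0 for all others. *Tgfbr1* at day 12 kept its call in 15 of 15, 12 of 12 and 14 of 14 of these fits.

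The replicate block changed no member count (3, 3 and 1 at day 12, 0 at day 28), and moved the genes called at day 12 from 2261, 2495 and 2113 to 2172, 2292 and 2004. Replicate numbers did not pair the libraries: the mean correlation was -0.0114 over 464 pairs with the same number and 0.00407 over 1348 others, and 17 of 62 libraries correlated best with their own number.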
